A study of Mus musculus with 13 samples.

Results

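Atrioventricular canal-like cardiomyocytes were taken from 7 single-cell RNA matrices of mouse hearts as barcodes rich in Tnnt2, the cardiac troponin T gene, that also held UMIs (unique molecular identifiers, each standing for 1 captured transcript) of Tbx3, Tbx2, Rspo3 or Bmp2. The limits were at least 2000 UMIs, 500 genes and 1% mitochondrial UMIs per barcode, at least 1500 CPM (counts scaled by the UMI total of the barcode) of Tnnt2, at least 3 UMIs of the 4 marker genes together, and no UMI of Shox2, a gene of the sinus node. Of 36651 barcodes within the limits on UMIs, genes and mitochondrial share, 23244 reached the Tnnt2 limit and 968 were members. The other 22276 Tnnt2 barcodes of the same libraries served as the comparison.

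The hearts came from wild-type C57Bl/6J mice at embryonic days E12.5, E14.5 and E16.5, with 2 libraries a stage, and from pups at postnatal day 3 (P3), deposited as 1 matrix of 2 wells. No group carried a mutation or a treatment. The first E16.5 matrix pools 2 sample records, and embryos of E8.5 and E10.5 were not used here. Nothing in the sources ties a library to its own animals, so p-values measure the spread between libraries, which may be partly technical.

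The atrioventricular canal is the ring of myocardium between the atria and the ventricles. It conducts slowly, which delays the impulse before the ventricles contract, and it later contributes to the atrioventricular node. Bmp2 from this myocardium is known to induce Tbx2 and to act on the neighbouring endocardial cushions, from which the valves form. Tbx2 and Tbx3 are T-box repressors that hold down working chamber genes such as Nppa, Gja5 and Gja1 there, and Rspo3 encodes a secreted R-spondin that strengthens Wnt signalling.

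Members were frequent at E12.5 and scarce from E16.5. They made up 11.4% of Tnnt2 barcodes in the first E12.5 library (197 of 1729, 95% exact binomial interval 9.93 to 12.99%) and 11.4% in the second (262 of 2300, 10.1 to 12.8%). At E14.5 the shares were 6.65% (187 of 2811, 5.76 to 7.64%) and 5.74% (136 of 2370, 4.84 to 6.75%). At E16.5 they were 1.51% (53 of 3509, 1.13 to 1.97%) and 1.15% (39 of 3387, 0.820 to 1.57%), and at P3 the share was 1.32% (94 of 7138, 1.07 to 1.61%). The 2 wells of the P3 matrix differed, at 1.71% (72 of 4201, 1.34 to 2.15%) and 0.749% (22 of 2937, 0.470 to 1.13%). The ranges of the embryonic stages did not overlap, and no test was run on the shares. With at least 5 marker UMIs the shares ran 8.39, 7.78, 4.06, 3.42, 0.883, 0.679 and 0.574% in the same order. Among barcodes with at least 5000 UMIs, each thinned to 5000, the stage shares were 5.51, 2.87, 0.565 and 0.354%. Intervals cover counting error only.

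Free RNA and mixed droplets can add to these shares. Among 387 barcodes with macrophage markers, taken as a rough guide, 12 (3.1%) held at least 3 UMIs of the 4 genes. None of the 14 and 9 such barcodes at E12.5 did so, against 3 of 57 and 1 of 40 at E14.5 (5.26 and 2.5%), 1 of 54 and 1 of 44 at E16.5 (1.85 and 2.27%) and 6 of 169 at P3 (3.55%). The median depth of these barcodes was below that of the members in each matrix, as with 11027 against 19138.5 UMIs at P3. The 14 and 9 barcodes at E12.5 are too few to set a value there. In the first E14.5 library the 6.65% of members is thus not far above a macrophage share that rests on 3 barcodes. The E16.5 and P3 shares of members lie at or under these macrophage shares and are not read as shares of cells that express the markers. Whether macrophages express any of the 4 genes was not tested, so their shares are not a measure of free RNA. In the second E16.5 library 25.0% of macrophage-marker barcodes held a marker UMI, whereas 3196 of 3387 Tnnt2 barcodes held none.

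**Figure D1:**
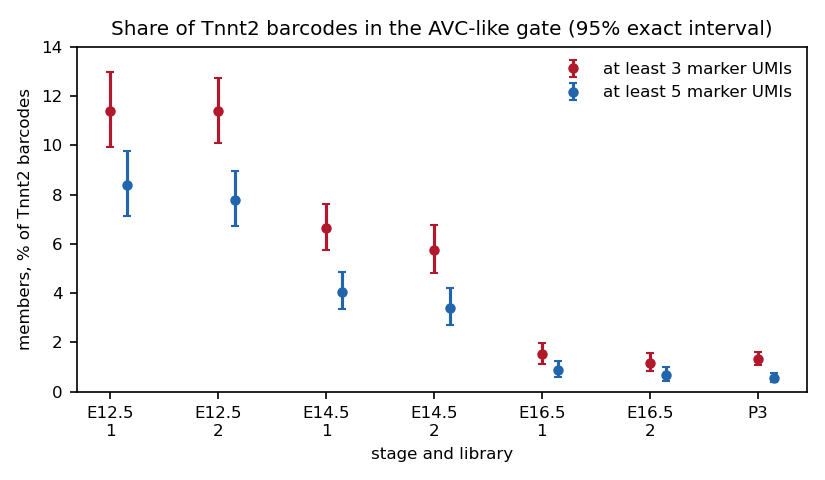
Share of Tnnt2 barcodes that met the membership rule (y axis, %) in each of the 7 matrices (x axis), with at least 3 marker UMIs in red and at least 5 in blue, and 95% exact binomial intervals as bars. At 3 UMIs both E12.5 libraries sit at 11.4%, both E14.5 libraries near 6% and the E16.5 and P3 matrices under 2%.

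Members were selected on their UMIs of Tnnt2, Shox2 and the 4 marker genes, so the values of these genes are a description. Rspo3 was the marker most often found in the embryonic members, with a UMI in 83.2, 82.4, 84.0, 81.6, 71.7 and 74.4% of them from the first E12.5 to the second E16.5 library, and in 37.2% at P3. Its level in the summed counts of members was 386, 397, 368, 353, 328 and 279 CPM in the embryonic libraries and 79.1 CPM at P3. Rspo3 was thus at a similar level in the 4 earlier libraries and lowest at P3. Tbx3 was found in 40.4 to 54.7% of members, Bmp2 in 43.9 to 51.3% and Tbx2 in 20.5 to 57.4%, over all 7 matrices. Between 54.3 and 80.7% of members held at least 2 of the 4 genes.

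Members at exactly 3 marker UMIs numbered 8 to 56 per matrix, and 27 to 98 other Tnnt2 barcodes held 2. The median member held 9 and 8 marker UMIs at E12.5, then 6 and 5 at E14.5, then 5 and 6 by E16.5, with 4 at P3. Shox2 kept out a further 4 to 25 barcodes per matrix, which stayed among the other Tnnt2 barcodes of the comparison. Their part in the differences was not tested. No barcode was a member in more than 1 library, and for any pair of libraries at most 4 member barcodes of either occurred among the Tnnt2 barcodes of the other.

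Median depth ran from 13430 to 24126 UMIs in members and 14091 to 25585.5 in the others of the embryonic libraries. The classes were close except in the first E16.5 library, at 16400 UMIs in members against 19913. At P3 members were deeper, at 19138.5 against 15190 UMIs, and held a lower median mitochondrial share, 14.9 against 22.1%. That share was also lower in members at E12.5 (5.55 against 6.70% and 5.70 against 7.08%) and E16.5 (8.35 against 10.6% and 8.86 against 11.0%), but not at E14.5, and its part in the results was not tested. Summed over a library, members gave between 669427 and 6369739 UMIs. No doublet caller was run, and barcodes with more than 1000 CPM of the non-myocyte marker lists were 11.0 to 28.2% of members and 2.52 to 7.51% of the others. Cnn1 of the smooth muscle list stood at 364 and 367 CPM in members and 275 and 274 CPM in the others at E12.5. The limit can thus also take out myocytes with much Cnn1 and is not a count of doublets.

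For the test, UMIs were summed per library and class over the 6 embryonic libraries and compared with edgeR's quasi-likelihood test, with the library as a block and the 6 rule genes left out. Of 12592 genes tested, 1747 (13.9%) were higher and 1991 (15.8%) lower in members at a Benjamini-Hochberg adjusted p under 0.05, 29.7% in all, with a median log2 difference of -0.02. Without the block 1036 were higher and 807 lower. Scaling by library totals alone, chosen after seeing the data, moved the median of all genes to 0.14 and gave 3146 higher and 897 lower, so small differences lean on the scaling. By Sln and Myl2 counts the comparison barcodes were mostly ventricular in type: those with more Sln than Myl2 UMIs were only 2.80 to 7.17% of them in the embryonic libraries. Sln was low in the comparison at E12.5, at 28.8 and 27.3 CPM, and stood at 334 and 354 CPM at E16.5. The division thus also follows the level of Sln and may miss atrial-type barcodes at E12.5.

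Genes of conduction and pacemaker tissue were mostly higher in members. Of 21 tested, 14 were higher, 2 (Tbx18 and Irx3) were lower and 5 did not pass, with a median log2 difference of 0.94. The higher genes were Isl1, Cacna1g, Cacna2d2, Rgs6, Cacna1d, Cpne5, Hcn4, Id2, Kcne1, Gjc1, Kcnj5, Ephb3, Cacna1h and Tbx5. Others of the list, among them Hcn2, Gjd3 and Cntn2, had too few UMIs to be tested.

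Cacna2d2, an auxiliary subunit of voltage-gated calcium channels, stood at 133 and 131 CPM in members at E12.5, then 152 and 140 at E14.5, then 154 and 108 by E16.5, with 140 at P3. The other Tnnt2 barcodes held 40.1 and 46.6, 17.7 and 13.9, 7.44 and 9.06, and 13.2 CPM. The classes did not overlap in any library, the members' level changed little with stage, and the difference was 6.02-fold (log2 2.59 ± 0.27 SE, 6 of 6 libraries, adjusted p = 1.045e-05). Against only those comparison barcodes with more Sln than Myl2 UMIs, Cacna2d2 stood at log2 -0.27 and did not pass. Cacna1g, the pore of the T-type channel Cav3.1, held 7.18, 6.12, 40.3, 30.0, 45.1 and 46.3 CPM in members of the embryonic libraries, against 0.558, 0.943, 3.58, 3.89, 7.10 and 7.58. Both classes climbed with stage and members stayed above in each library, 6.98-fold in the fit (log2 2.80 ± 0.16, adjusted p = 5.246e-08). At P3 the values were 65.8 against 12.04 CPM.

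Gjc1 encodes connexin 45, the low-conductance gap junction protein of nodal tissue. It held 97.4, 101, 99.5, 92.2, 70.0 and 71.7 CPM in members and 38.8, 43.1, 47.2, 49.9, 31.4 and 33.5 CPM in the others, 1.96-fold higher (log2 0.97 ± 0.08, adjusted p = 6.357e-07). Id2, a helix-loop-helix inhibitor that BMP signals induce, fell with stage in both classes but stood at 199 to 550 CPM in members against 38.7 to 203 CPM. Its fitted difference was 3.01-fold, in 6 of 6 libraries. Isl1, a LIM homeodomain factor of cardiac progenitors and the sinus node, was low, at 4.48 to 16.48 CPM in members and 0.0877 to 2.68 CPM in the others, and 8.03-fold higher in the fit. Members without Rspo3 held it at 5.87 and 5.08 CPM at E12.5, on 5 and 6 UMIs. From E14.5 on they held no Isl1 UMI, in 30, 25, 15, 10 and 59 barcodes, so its excess there rested on members with Rspo3.

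Hcn4, the main pacemaker channel, rested on few molecules. Members held 5, 8, 18, 5, 5 and 8 UMIs in the embryonic libraries, that is 0.998, 1.26, 5.14, 2.31, 4.79 and 11.95 CPM, against 0.570 to 1.15 CPM in the others. At E12.5 the classes overlapped, from E14.5 members were above, and the fitted difference was 3.06-fold (log2 1.61 ± 0.48, 5 of 6 libraries, adjusted p = 0.02102).

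Working chamber genes were mostly lower. Of 20 tested, 14 were lower, 2 (Ankrd1 and Tcap) were higher and 4 did not pass, with a median log2 difference of -0.63. The lower ones included Gja1, Gja5, Nppb, Cited1, Nppa, Mb, Smpx, Hopx, Ryr2, Ckm, Atp2a2, Pln and Cox8b.

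Gja1, which encodes connexin 43 of the fast-conducting myocardium, held 16.8 and 19.3 CPM in members at E12.5, then 46.3 and 38.3 at E14.5, then 71.0 and 91.1 by E16.5, with 56.8 at P3. The others held 147 and 172, 201 and 202, 237 and 242, and 260 CPM. The highest member value was below the lowest value of the others, and the fit gave 5.93-fold (log2 -2.57 ± 0.16, lower in 6 of 6 libraries, adjusted p = 6.717e-08). Gja5, connexin 40, held 5.99, 6.44, 13.7, 15.2, 12.47 and 4.48 CPM in members against 46.9, 46.05, 33.5, 28.3, 17.7 and 19.6 CPM. The others declined with stage while members stayed low, and at P3 it was 23.9 against 28.6 CPM. The fitted difference was 4.30-fold (log2 -2.10 ± 0.24, adjusted p = 2.28e-05).

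Smpx, a small muscle protein, was at 322 to 674 CPM in embryonic members against 997 to 1139 CPM in the others, 2.49-fold lower. Ryr2, the calcium release channel, and Atp2a2, the calcium pump of the sarcoplasmic reticulum, were lower by less, with log2 differences of -0.68 and -0.55. Ankrd1, a stress-responsive protein of the sarcomere, went the other way at log2 0.88.

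Nppa, which encodes atrial natriuretic peptide, is a classic target of T-box repression in the canal. Members held 419 and 615 CPM at E12.5, then 503 and 668 at E14.5, then 471 and 477 by E16.5, with 3824 at P3. The others held 3141 and 2582, 809 and 828, 1562 and 1593, and 7354 CPM. Members were below the others in each of the 7 matrices, and the fit gave 3.40-fold (log2 -1.77 ± 0.25, adjusted p = 0.0001148). The E14.5 values rested largely on members at exactly 3 marker UMIs, where 49 and 29 barcodes stood at 1334 and 2259 CPM. Members with 4 to 9 marker UMIs stood at 266 and 252 CPM there, and those with 10 or more at 154 and 216 CPM. In the second E16.5 library 8 such members at 3 marker UMIs held 252 Nppa UMIs (1694 CPM), against 204 and 5.07 CPM in the higher classes, whereas in the first the 12 members at 3 marker UMIs held 4 Nppa UMIs (16.4 CPM) and those with 4 to 9 stood at 922 CPM.

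The Nppa upstream sequence is shown because it was the only promoter of the working chamber list with the T-box motif AGGTGTGA on either strand. It is the 250 bases before the RefSeq start of Nppa in GRCm38.p6, chr4:148000472-148000721, plus strand, with the motif's reverse complement in capitals.
Nppa: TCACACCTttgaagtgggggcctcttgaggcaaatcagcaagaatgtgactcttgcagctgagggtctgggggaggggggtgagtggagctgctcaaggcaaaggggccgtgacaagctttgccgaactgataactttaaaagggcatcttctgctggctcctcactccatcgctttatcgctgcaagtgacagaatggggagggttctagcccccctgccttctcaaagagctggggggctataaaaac
The capitals begin 250 bases before the start. The same 8 letters, on either strand, were in 350 of 27025 promoters (1.30%), in 71 of 9508 promoters of tested genes (0.747%), in 11 of 1545 of genes lower in members (0.712%) and in 9 of 1288 of genes higher (0.699%). The motif was less frequent among tested genes than among all promoters, and close to that share in the genes that differed in either direction. In the working chamber list 1 of 17 promoters held it. A match describes letters and is not evidence of binding.

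**Figure D2:**
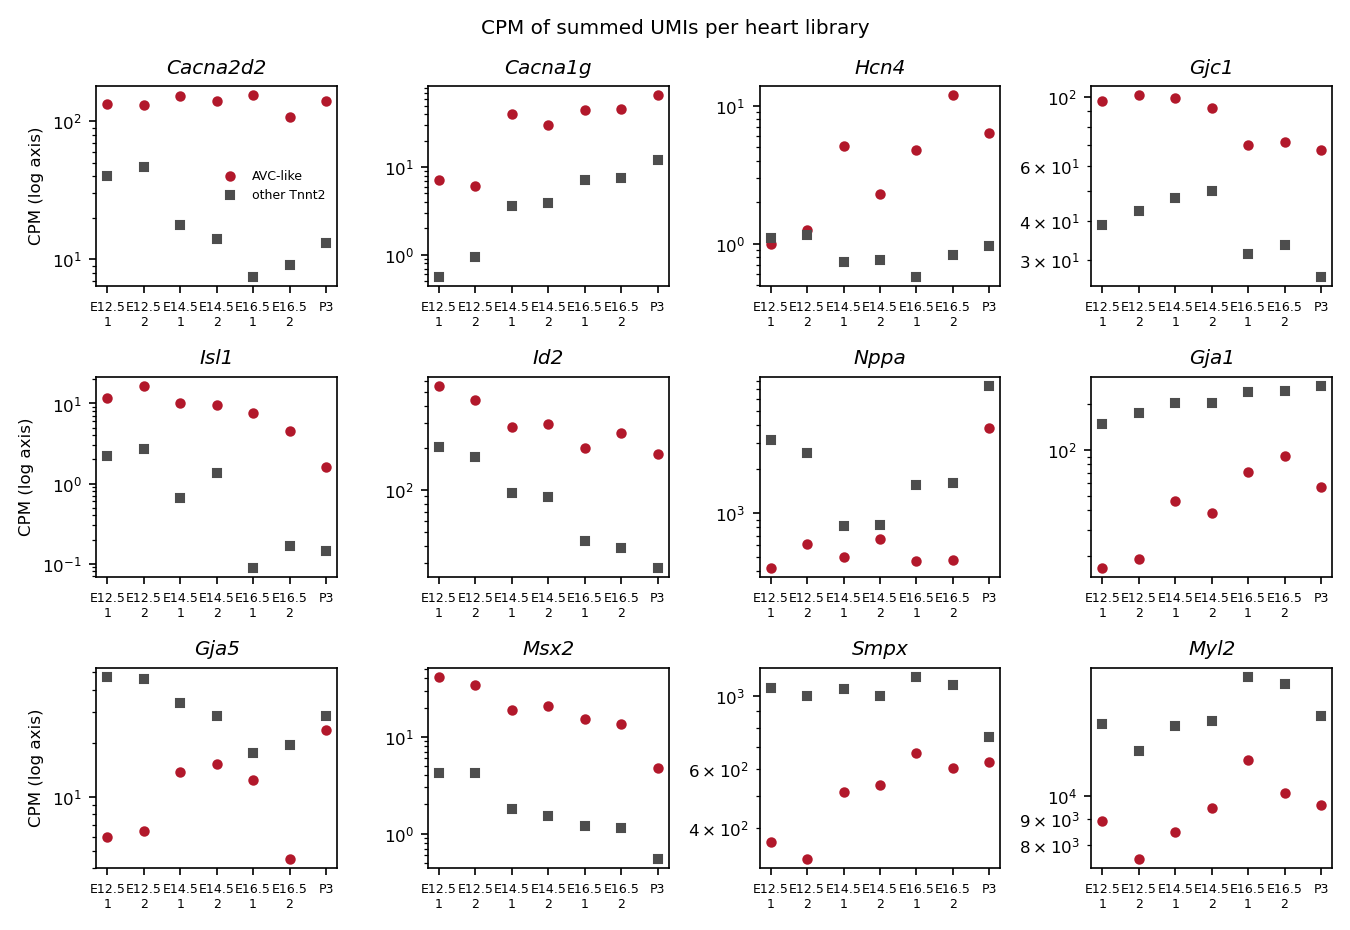
Summed level (y axis, CPM, log scale) of 12 genes in members (red circles) and in the other Tnnt2 barcodes (grey squares) of each matrix (x axis). Cacna2d2, Cacna1g, Gjc1, Isl1, Id2 and Msx2 lie above the comparison in all 7 matrices, Nppa, Gja1, Gja5, Smpx and Myl2 lie below it, and Hcn4 overlaps at E12.5.

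Atrial genes leaned higher and ventricular genes lower in members than in a comparison that was mostly ventricular. Of 12 atrial genes 6 were higher, among them Clu, Sln, Myl7, Tbx5 and Myl4, and 1, Bmp10, was lower. Of 12 ventricular genes 8 were lower (Hey2, Irx1, Myl2, Mycn, Irx2, Irx4, Myl3 and Myh7) and 2 were higher (Kcne1 and Mpped2). Myl7, the atrial regulatory light chain, held 4895 to 12921 CPM in embryonic members against 2618 to 7201 CPM, 1.86-fold higher. Myl2, its ventricular counterpart, held 7498 to 11727 CPM against 12211 to 17093 CPM, 1.78-fold lower. Members thus expressed much Myl2 while standing below the comparison.

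The comparison was therefore repeated against each side, where the Sln side had more Sln than Myl2 UMIs and the Myl2 side the reverse. Of 9441 genes tested against both, 454 (4.81%) were higher than both sides and 309 (3.27%) lower than both, while 123 (1.30%) were below the Sln side and above the Myl2 side and 140 (1.48%) the reverse. Both sides were compared with the same members, so the counts are not independent. The division itself sets where Sln and Myl2 fall, and, since only 1.91 to 20.5% of embryonic members were themselves on the Sln side, it also bears on other atrial and ventricular genes.

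Higher than both sides were Cacna1g, Gjc1, Id2, Isl1, Kcne1, Msx2, Bmp4, Smad6, Smad7, Smad9, Id1, Id3, Tgfb2, Bambi and Lef1, and also the mesenchyme genes Col1a1, Col1a2, Col3a1, Dcn, Lum, Postn, Sox9 and Twist1. Lower than both were Gja1, Gja5, Nppa, Nppb, Ryr2, Atp2a2, Smpx, Cited1 and Bmp10. Myl7, Myl4, Tbx5, Kcnj3 and Kcnj5 lay between the sides, as did Myl3, Myh7, Irx4, Hey2 and Pln. Against the Sln side Tbx5 was lower, at log2 -1.29, and Cacna2d2 (-0.27, adjusted p = 0.4247) and Cpne5 (-0.56, adjusted p = 0.1497) did not pass. Of all 9443 genes tested against the Sln side 990 were higher and 930 lower, 20.3% in all. Against that background 6 conduction genes were higher and 6 lower of 20, and 4 working chamber genes were higher and 10 lower of 20. Of 12 atrial genes 1 was higher and 10 were lower there, and 11 of 11 ventricular genes were higher.

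**Figure D3:**
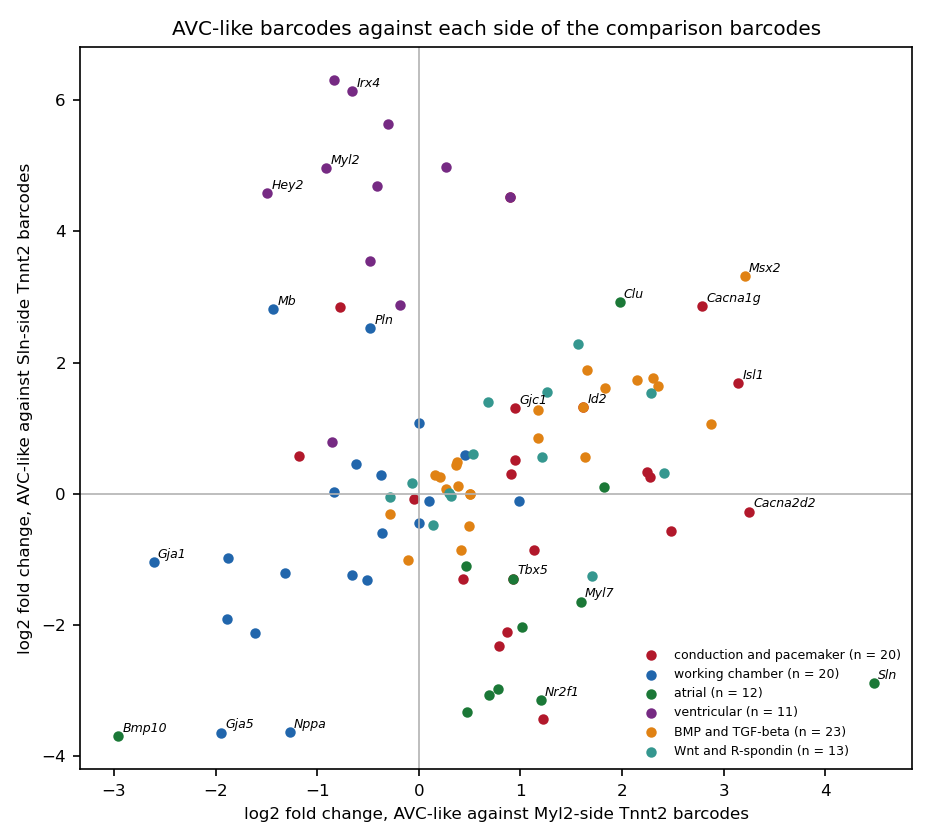
Log2 difference of members from the Myl2 side (x axis) and from the Sln side (y axis) of the other Tnnt2 barcodes for tested genes of 6 lists (colours). Cacna1g, Msx2 and Gjc1 lie in the region higher than both, Gja1, Gja5 and Nppa in the region lower than both, and Myl2 and Sln where the division of the barcodes put them.

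BMP signalling, in which secreted ligands act through receptors and Smad proteins on targets such as the Id and Msx genes, had the broadest shift of the signalling lists. Of 27 genes tested 20 were higher, 1 (Bmp7) was lower and 6 did not pass, with a median log2 difference of 1.16. Bmp2 itself was in the rule and was left out. The ligand gene Bmp4 held 122 and 106 CPM in members at E12.5, then 29.7 and 37.4 at E14.5, then 12.47 and 13.4 by E16.5, with 3.18 at P3, against 18.4 and 16.6, 3.85 and 4.98, 1.18 and 0.906, and 0.744 CPM. It declined in both classes and stayed above in members, 6.57-fold in the fit.

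The target Msx2, a homeobox repressor of the canal, held 41.3, 34.1, 18.9, 20.8, 15.3 and 13.4 CPM against 4.21, 4.20, 1.78, 1.52, 1.21 and 1.15 CPM, 9.20-fold higher (log2 3.202 ± 0.12, 6 of 6 libraries). Id1 and Id3 were 3.48-fold and 4.78-fold higher. The inhibitors moved too: Smad6, which blocks BMP receptors from within the cell, was 4.35-fold higher and Bambi, a decoy receptor, 2.26-fold. Tgfb2, a ligand of cushion formation, was 3.17-fold higher, and Has2, which makes the hyaluronan of cushion matrix, 13.2-fold. Against the Sln side alone 13 of 23 BMP genes were higher and 2 lower.

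Of 21 Wnt and R-spondin genes tested besides Rspo3, 11 were higher and 1, Lgr4, was lower (median log2 0.51). Lgr4 encodes a receptor for R-spondins and differed by -0.27. The feedback targets Axin2 and Nkd1 were at log2 2.16 and 1.15, the transcription factor Lef1 at 2.20 and the secreted Wnt inhibitor Frzb at 2.32. Against the Sln side 5 of 13 Wnt genes were higher and 2 lower, and Axin2 (0.32, adjusted p = 0.4209) and Nkd1 (0.57, adjusted p = 0.2178) did not pass there. Lgr6, Znrf3, Tcf7, Nkd2, Wif1, Ctnnb1, Lrp5, Lrp6 and Rspo1 did not pass. Of 7 Notch and Hey genes, Heyl, Notch1 and Hes1 were higher and Hey2 and Jag1 lower, while without barcodes above 1000 CPM of non-myocyte markers 1 was higher and 1 lower.

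Cell cycle genes leaned lower, with 14 of 25 lower and 1 higher (median log2 -0.38). The lower ones included Ccne1, Mcm6, Pcna, Mki67 and Top2a. Mcm6, a replication helicase subunit, was at -0.72 and Mki67, a proliferation marker, at -0.42. Cdkn1a, which encodes the cyclin-dependent kinase inhibitor p21, was the higher one: it held 105, 90.1, 66.0, 74.7, 60.4 and 79.2 CPM in members against 25.4, 26.1, 31.8, 37.0, 36.6 and 38.1, and 183 against 70.7 CPM at P3. Members lay above every value of the others among embryonic libraries. Against the Sln side 3 cell cycle genes were higher and 2 lower of 25, near the share over all genes there.

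Contractile genes leaned on the scaling. Of 20 tested 4 were higher and 9 lower (median log2 -0.19), and under library totals, where 25% of all genes were higher and 7.12% lower, 7 were higher and 3 lower. Of 12 cardiomyocyte identity genes Hand2 and Tbx20 were higher, and Actn2, Actc1, Mef2c, Ttn and Tnni1 were lower, while under library totals 6 were higher and 1 lower. Nkx2-5, the core cardiac homeobox factor, did not pass (log2 0.10, adjusted p = 0.3402).

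The 15 genes with the largest excess in members were Gcgr, Tbx3os1, Ntsr1, Grid1, Gal, 1700086L19Rik, Tnc, Scara3, Hs3st3a1, Tceal6, Cfc1, Pla2g5, Ifitm1, Crabp1 and Has2. Tbx3os1 is antisense to the rule gene Tbx3, and how strand was counted is not given in the sources used here. Ntsr1, a neurotensin receptor gene, held 2.59, 3.45, 19.1, 12.9, 11.5 and 19.4 CPM in embryonic members and 12.2 CPM at P3, and was 24.9-fold higher in the fit. Gcgr, the glucagon receptor gene, held 1.26 to 13.4 CPM in embryonic members and 14.3 at P3. Gal, which encodes the neuropeptide galanin, was uneven, at 128 and 52.6 CPM at E12.5, then 23.1 and 12.45 at E14.5, then 167 and 106 by E16.5, with 20.2 at P3. Crabp1, which encodes a retinoic acid binding protein, held 46.9, 51.7, 58.3 and 66.9 CPM up to E14.5 and 14.4 and 17.9 at E16.5. These genes differed from each other in course, but members exceeded the others in 6 of 6 libraries for Ntsr1, Gal, Gcgr and Crabp1.

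The 15 genes with the largest deficit in members were Bmp10, Uts2b, Slc1a1, Psma8, Gja1, Angpt1, Mest, Pde9a, Ntn1, Ckmt2, Sox3, Gja5, Gm12027, Plbd1 and 2010300C02Rik. Uts2b, Slc1a1, Psma8, Pde9a and Gm12027 had at most 4 UMIs in any embryonic sum of members. Bmp10, a ligand gene of trabecular and atrial myocardium, was 8.31-fold lower. Angpt1, a ligand gene for the endothelial receptor Tie2, was 4.74-fold lower, and Ntn1, the netrin gene, 4.58-fold. In CPM at P3, 12 of the 15 higher and 11 of the 15 lower genes kept their direction, where 68.0% of all tested genes were higher and 31.9% lower.

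Marker genes of other cells moved with membership. All 10 mesenchyme and fibroblast genes were higher (median log2 1.95), and their summed level was 153 to 1267 CPM in embryonic members against 59.0 to 139 CPM. Without the barcodes above 1000 CPM of non-myocyte markers 1 of 9 was higher (median 0.43), and Postn, Dcn and Col1a1 then stood at log2 -0.09, 0.43 and 0.31. This limit was set on the same marker genes and took out a larger part of the members, so a fall of their excess was built in. In that subset 13.9% of all genes tested were higher and 15.9% lower, and 15 conduction genes were higher and 2 lower, 3 working chamber genes were higher and 13 lower, and 18 of 25 BMP genes were higher and 1 lower. The median log2 difference there was 1.05 for conduction genes and -0.66 for working chamber genes, but 0.59 for BMP genes and 0.36 for Wnt genes, below their values over all members.

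Of the remaining lists, 4 of 6 smooth muscle and pericyte genes were higher and 1 lower (in the subset 1 of 5 was called, as lower), 1 of 10 endothelial genes was higher and 1 lower, and 1 of 4 epicardial genes was higher. The 5 macrophage genes tested did not pass (median log2 0.31, each also above 0.05 unadjusted in edgeR), and 5 of 9 erythroid genes were lower. The summed erythroid level was uneven. It was higher in members in the first E12.5 library (4487 against 3019 CPM), the second E16.5 library (9256 against 6318) and P3 (4953 against 895), and lower elsewhere. The endothelial list summed to 104 and 130 CPM in members against 36.3 and 44.8 CPM at E16.5, and 235 against 42.6 CPM at P3. Before E16.5 its sums were closer. The part of mixed droplets in the mesenchyme, Has2, Tnc and Wnt differences was not tested beyond that subset, which cannot decide it for the genes that set its limit.

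Levels of genes outside the rule differed between Tnnt2 barcodes with no marker UMI and those with many, though not evenly from class to class. In the first E12.5 library Cacna2d2 stood at 33.2 CPM in Tnnt2 barcodes with no marker UMI and at 209 CPM in those with 10 or more, and at P3 it went from 10.9 to 468 CPM. Gja1 went from 163 to 9.26 CPM and from 267 to 13.1 CPM. Gjc1 went from 36.6 to 121 CPM and Smpx from 1106 to 205 CPM in the first E12.5 library. Median depth in that library was 25403 UMIs in the lowest class and 22865 in the highest. Cacna2d2 in the second E12.5 library stood at 94.5 CPM in barcodes with 2 marker UMIs and 61.2 CPM in those with 3. Nppa was uneven, at 7403, 6386, 9619, 2992, 5762 and 236 CPM from the lowest to the highest class at P3. These are values per class of barcodes that share a library, given with no test. Barcodes with Shox2 were left out of the classes from the membership limit up, but not of those below it.

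Members were not uniform. In 180 of 968 (18.6%) Rspo3 was the only marker gene present, and this division was made after values were seen, so it is described with no test. In these barcodes Cacna2d2 stood at 15.6, 17.8, 2.26, 21.2, 8.64 and 0 CPM over the embryonic libraries, against 150, 156, 203, 182, 196 and 139 CPM in the remaining members. Tbx5, a T-box activator of the atria and the canal, stood at 6.22, 6.22, 12.4 and 8.82 CPM up to E14.5 against 57.7, 51.3, 78.8 and 73.7 CPM. It was thus also below the other Tnnt2 barcodes, at 38.8, 43.2, 28.0 and 24.3 CPM. Nr2f1 stood at 4.67, 6.22, 2.26 and 0 CPM against 34.8, 35.1, 17.2 and 12.6 CPM in the other Tnnt2 barcodes. Irx4 stood at 3.11, 9.78, 7.91 and 40.6 CPM against 47.1, 52.5, 47.9 and 48.3 CPM. Cacna2d2 in these barcodes was thus nearer to its level in the other Tnnt2 barcodes than to that in the remaining members. It was above the other Tnnt2 barcodes in the second E14.5 library (21.2 against 13.9 CPM) and the first E16.5 library (8.64 against 7.44 CPM).

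Cacna1g stood at 0, 0.889, 6.78 and 3.53 CPM in the Rspo3-only barcodes up to E14.5, against 0.558, 0.943, 3.58 and 3.89 CPM in the other Tnnt2 barcodes. After E14.5 it stood at 30.2 and 6.56 CPM at E16.5 and 20.4 CPM at P3, on 7, 1 and 2 UMIs. Bmp4 stood at 160, 256, 50.8 and 40.6 CPM in them up to E14.5, against 116, 74.2, 22.6 and 36.2 CPM in the remaining members, and at 4.32 and 39.4 CPM at E16.5 (1 and 6 UMIs) against 14.8 and 5.80 CPM. Isl1 stood at 9.33, 29.3, 24.9 and 12.3 CPM up to E14.5 against 12.1, 13.7, 4.97 and 8.74 CPM, so that it was higher in the Rspo3-only barcodes in 3 of these 4 libraries. These barcodes thus shared some features of the remaining members and lacked others, and whether they belong to the canal was not tested. Gja1 was also low in the Rspo3-only barcodes, at 15.6, 8.89, 54.2 and 44.1 CPM up to E14.5, and Gjc1 was close to its level in the remaining members there, at 90.2, 119, 97.2 and 93.5 CPM. Later the 2 genes departed from this, with Gjc1 at 43.2 and 45.9 CPM at E16.5 against 77.6 and 79.3 CPM in the remaining members, and Gja1 at 25.9 and 138 CPM against 83.8 and 77.4 CPM. Itm2a, a membrane protein gene, was at 464, 466, 497 and 372 CPM against 225, 210, 162 and 166 CPM in the remaining members. Up to E14.5 Cacna2d2, Cacna1g and Tbx5 thus stood higher in the remaining members than in the Rspo3-only ones, and of these 3 genes only Cacna1g was higher in members than on both sides of the comparison. Leaving the Rspo3-only barcodes out, a step added after seeing the data, gave 3646 called genes, of which 3344 were among the 3738.

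**Figure D4:**
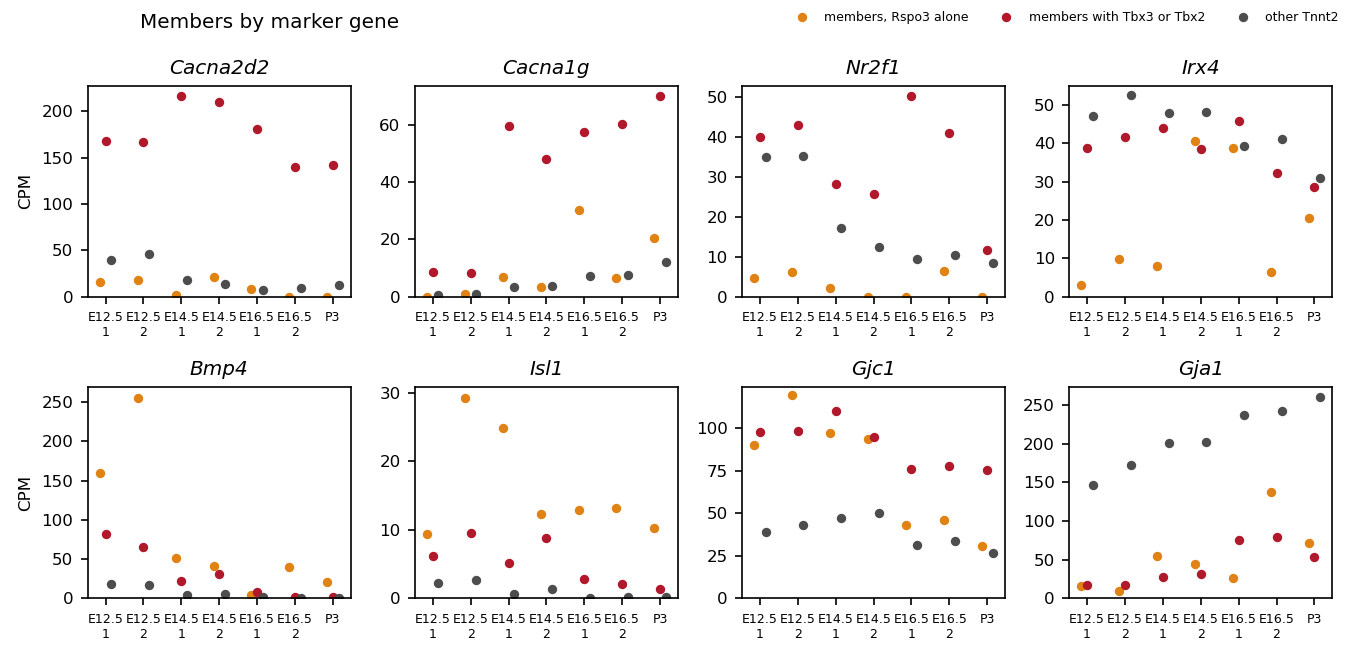
Summed level (y axis, CPM, linear scale from 0) of 8 genes in members with Rspo3 as the only marker gene (orange), in members with Tbx3 or Tbx2 (red) and in the other Tnnt2 barcodes (grey) of each of the 7 matrices (x axis). Cacna2d2 reaches at most 21.2 CPM in the Rspo3-only members, against 140 to 217 CPM in members with Tbx3 or Tbx2.

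Members themselves divided into a Sln side and a Myl2 side. The Sln side held 3.55 and 1.91% of members at E12.5, then 10.7 and 8.82% at E14.5, then 15.1 and 20.5% by E16.5, with 35.1% at P3, against 2.81, 2.80, 4.57, 3.00, 7.03, 7.17 and 16.4% of the others. Sln in the others stood at 28.8 and 27.3 CPM at E12.5 and at 1072 CPM at P3, so these shares also follow its level. At least 10 barcodes a side in both libraries of a stage were present only at E14.5, with 20 and 12 members on the Sln side and 166 and 121 on the Myl2 side. That fit left 1 residual degree of freedom.

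Of 8243 genes tested there 231 (2.8%) were higher and 384 (4.66%) lower on the Sln side, 7.46% in all. Of 10 atrial genes 9 were higher and 1 lower, of 10 ventricular genes 7 were lower, and both lists overlap in kind with the Sln and Myl2 counts that made the division. Of 19 conduction genes 9 were higher and 2 lower, with Tbx5 at log2 2.35 and Cacna2d2 at 2.33, whereas Cacna1g (0.90, adjusted p = 0.123) and Gjc1 (-0.64, adjusted p = 0.2034) did not pass. Gja1 was lower, at -2.88, as were 14 of 24 cell cycle genes. The genes with the largest excess on the Sln side were Vsnl1, Nr2f1, Fcmr, Kcna5, Acvr1c, Cav1, Gm3002 and Adam33. The largest deficits (Stmn4, Nppb, Cdc20, Kpna2, Hey2, Psd, Rcbtb2 and Slitrk4) had no UMI on the Sln side, so no fold is given.

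Between E12.5 and E16.5 working chamber genes mostly rose, and many cell cycle and BMP genes fell, in members and in the other Tnnt2 barcodes. Of 10633 genes tested in the sums of members 893 (8.4%) rose and 808 (7.6%) fell, 16% in all, with 544 risen without the first E16.5 library and 507 fallen without the second. Of 14072 genes tested in the far larger sums of the other Tnnt2 barcodes 4268 (30.3%) rose and 4116 (29.2%) fell, 59.6% in all. Among members 14 of 20 working chamber genes rose and 1 fell, 7 of 21 conduction genes rose and 3 fell, 9 of 26 BMP genes fell and 14 of 25 cell cycle genes fell. Among the others 13 of 20 working chamber genes rose and 4 fell, 9 of 23 conduction genes rose and 11 fell, 20 of 28 BMP genes fell and 4 rose, and 12 of 25 cell cycle genes fell and 3 rose. Of 12 atrial genes 11 fell and 1 rose in the others, against 4 fallen and 3 risen in members.

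In members Cacna1g rose by log2 2.77, Gja1 by 2.12 and Ckm, the muscle creatine kinase gene, by 5.89. Bmp4 changed by -3.15, Msx2 by -1.37, Id2 by -1.15 and Mki67 by -0.76. Cacna2d2 stood at 0.01 (adjusted p = 0.9724) in members and at -2.22 in the others. The genes with the largest rises were Col15a1, Ptgds, Dpt, Aplnr, Ifitm1, Gpihbp1, Ckm and Npy. Several of these are genes of connective tissue or vessels, and the summed mesenchyme list stood at 243 and 224 CPM at E12.5 and 1194 and 1267 CPM at E16.5. The largest falls (Espn, Upk3b, Tmem37, Sncb, Apela, Wdr93, Wnt2 and 1600014C23Rik) had no UMI in members at E16.5, where 3 UMIs would be 2.88 and 4.48 CPM.

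The contrast between members and the others itself changed with stage. Of 12592 genes 402 (3.19%) had a higher contrast at E16.5 than at E12.5 and 615 (4.88%) a lower one, 8.08% in all, and without the library block the counts were 265 and 264. By list the contrast was higher for 9 of 21 conduction genes and lower for 2, higher for 8 of 12 atrial genes and lower for 2, and lower for 13 of 25 cell cycle genes and higher for 3. It was also lower for 8 of 12 cardiomyocyte identity genes and higher for 1, and lower for 11 of 20 contractile genes and higher for 2. Markers of other cells moved too, with a higher contrast for 6 of 10 mesenchyme genes, 4 of 6 smooth muscle and pericyte genes and 3 of 10 endothelial genes, and their part in the change was not tested beyond leaving out barcodes rich in them. The genes with the largest increases were Paqr6, Areg, Aplnr, Cyp7b1, Pvalb, Procr, Sall3 and Tubb3, and those with the largest decreases were Lgals3, Zbtb8b, Espn, 1600014C23Rik, Mastl, Tmem37, E430018J23Rik and Wdr19. Both groups rest on few UMIs in members, and the latter had none at E16.5.

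At P3, with 1 matrix and no test, 1551 of the 1747 higher genes (88.8%) were also higher in members, against 68.0% of all tested genes. Of the 1991 lower genes 1029 (51.7%) were lower at P3, against 31.9% of all tested genes. In CPM, which is scaled by library totals, 1472 of the higher genes but only 783 of the lower genes had their direction in all 6 embryonic libraries. The background at P3 leaned towards higher values in members, whose mitochondrial share was lower, and its part in these counts was not tested. The first well gave 72 of the 94 members at P3 and 4129 of the 7044 others, so class and well were partly mixed. Inspecting its data by eye, the study saw significant batch differences at P3 only. The part of the wells in the P3 values was not tested. Cacna1g, Cacna2d2 and Gjc1 kept their direction there, as did Gja1, Nppa and Smpx.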

How the data were processed

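The authors dissociated mouse hearts, built 10x Genomics 3′ libraries and deposited raw UMI counts in 7 heart matrices (P3 as 1 matrix of 2 wells, and the first E16.5 matrix for 2 sample records), aligned to mm10 with Cell Ranger (2.1.1 in the submitters' processing notes, and software versions 3.1.0 and 3.0.0 in the matrix headers). The digestion enzyme and kit version differ between the labels and the study's methods. Totals ran from 67141166 to 158627277 UMIs per matrix. Counts are not scaled by transcript length, so levels of different genes were not compared.

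Members were picked per barcode as given above, and the UMI counts of each class were added up within a library. The 6 rule genes (Tnnt2, Tbx3, Tbx2, Rspo3, Bmp2 and Shox2) were removed after library sizes were set. Sums were tested in edgeR 4.0.16 (R 4.3.3) with TMM scaling, filterByExpr, a library block and Benjamini-Hochberg adjustment at 0.05. DESeq2 1.42.0 was an alternative. SE is the log2 difference divided by the square root of F. Fits were also run on simulated counts with the same fixed spread for all genes, which may differ from the spread in these data. No result here rests on that run. Both classes of a library come from the same cells in suspension, which is the source of the pairing, and the paired deviations of the libraries correlated at 0.615, 0.300 and 0.304 over 3270 genes.

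Named genes were the listed genes, the 15 largest changes a direction for membership and the 8 largest for the other comparisons. Members and gene lists were chosen with earlier results of these data known. P3 was deposited as 1 matrix, whose 2 wells the labels do not tie to sample records, and was not tested. No doublet caller was run, and doublets were addressed by leaving out barcodes above the 95th percentile of UMIs or above 1000 CPM of non-myocyte markers. Some results are not reported here. Thinning drew 5000 UMIs per barcode and left out barcodes with fewer. Promoters came from RefSeq (GRCm38.p6).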

Additional observations from a re-analysis of the deposited data

Results flagged for a closer look

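The 42 genes below are named genes with at least 10 UMIs in members at each stage. In them the difference between members and the other Tnnt2 barcodes was itself different at E16.5 and E12.5 (edgeR interaction term, adjusted p under 0.05). They are not all the named genes within these limits. Among those left out, the contrast at E16.5 was also lower for Nkx2-5 and higher for Nr2f1. The values below are the log2 difference at E16.5 minus that at E12.5, with 29 above 0 and 13 below.

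Among conduction genes the excess in members was larger at E16.5 for Hcn4 by 3.25, for Isl1 by 2.94, for Cpne5 by 2.42, for Cacna2d2 by 2.23, for Cacna1d by 1.46, for Tbx5 by 0.98 and for Id2 by 0.83. Hcn4 rested on 5 and 8 member UMIs in each pair of libraries. Among signalling genes it was larger for Msx1 by 2.78, for Lef1 by 2.37, for Nkd1 by 1.65, for Axin2 by 1.41, for Id3 by 1.09, for Id1 by 0.90 and for Bambi by 0.39, and smaller for Tgfb2, at -0.54. Among the further genes with an excess it was larger for Gcgr by 4.68, for Gal by 2.78 and for Crabp1 by 2.34, and smaller for Tnc at -2.38, Clu at -1.39 and Cdkn1a at -1.26.

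The deficit of members was smaller at E16.5 for Bmp10 by 1.87, Cited1 by 1.78, Mest by 1.75, Gja5 by 1.69, Gja1 by 1.33, Ntn1 by 1.26, Smpx by 0.58, Nppa by 0.53 and Ccnd2 by 0.38. A change of the contrast can come from either class. Bmp10, Cited1, Gja5 and Nppa fell in the others between these stages and did not pass in members. Among muscle genes Myl4 stood at 0.67, Sln at -0.71, Myl3 at -0.50, Myh7 at -0.34, Ttn at -0.26, Myl2 at -0.18, Hand2 at -0.52 and Tbx20 at -0.40. The proliferation genes Mki67 and Top2a stood at -0.89 and -0.65. The mesenchyme genes Dcn and Postn stood at 2.15 and 1.63, and both turned negative without barcodes rich in non-myocyte markers, as did Nppa. Dcn and Postn are among the markers that set this limit, so their turn was partly built in.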

How the results depend on the processing

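With the library block replaced by no replicate block, members differed from the others in 1036 higher and 807 lower genes, and 1828 of the 3738 called genes were still called with 0 in the opposite direction. The contrast between stages then gave 265 and 264 genes. Against the Sln side alone 990 were higher and 930 lower, and 1034 of 3184 genes tested there pointed the opposite way. Library totals without TMM factors, chosen after seeing the data, gave 3146 and 897. Leaving out each library gave 1321 to 1792 higher and 1500 to 1941 lower genes for membership, and 544 to 731 risen and 507 to 742 fallen genes for stage, with the lowest values without the first and the second E16.5 library. DESeq2 gave 581 and 445 for stage. Member shares were 8.08, 3.74, 0.781 and 0.574% with 5 marker UMIs and 5.51, 2.87, 0.565 and 0.354% after thinning. Without the mitochondrial floor they were 7.73% at E12.5 with 5.20% at the next stage, and without barcodes rich in non-myocyte markers the E12.5 share was 10.3%. Against the Sln side some genes took the opposite sign and passed: Tbx5 -1.29, Irx3 2.84, Pln 2.53, Mb 2.82, Sln -2.88, Myl7 -1.64, Myl4 -1.10, Myl2 4.96, Myl3 3.55, Myh7 4.70, Irx4 6.14, Hey2 4.59, Mycn 0.79 and Actn2 0.55. Others had the opposite sign but did not pass, so that the difference was lost: Cacna2d2 -0.27, Cpne5 -0.56, Tbx18 0.58, Ckm 0.46, Hopx 0.028, Ankrd1 -0.10, Mki67 0.079, Top2a 0.12 and Actc1 0.014. Without barcodes rich in non-myocyte markers Postn stood at -0.086, and the contrast between stages at -0.98 for Nppa, -1.32 for Postn and -0.72 for Dcn. Postn and Dcn are among the markers that set that limit. Between stages Cacna2d2 ran from -0.37 (without the first E16.5 library) to 0.24 and Nppa from -0.38 to 0.14 (without the second E12.5 library) when each library was left out. The Sln and Myl2 sides of members could not be fitted with a library left out. The causes of these shifts were not tested beyond what each setting changes. Depth limits E16.5, where 3 UMIs in members are 2.88 and 4.48 CPM.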
